A study of Canis lupus familiaris with 8 samples.

Results

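Laminins are the cross-shaped glycoproteins on which basement membranes are built. Each molecule joins an alpha, a beta and a gamma chain, and each chain has a gene of its own. The alpha chain carries the globular end that integrins and dystroglycan bind, and the short arms of the chains link laminins into a sheet that nidogens, perlecan and type IV collagen complete. In the eye such sheets form the inner limiting membrane under the Müller cell endfeet, the walls of retinal and choroidal vessels, Bruch's membrane under the pigment epithelium, and the lens capsule. The genes described here are the 9 laminin chains LAMA1, LAMA2, LAMA3, LAMA4, LAMB1, LAMB2, LAMB3, LAMC1 and LAMC3, taken by symbol from a table of 12824 genes. All 9 were found. Other laminin chains were not analysed here.

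The samples were retina of male wild-type Beagle dogs aged 31 weeks, in 2 groups of 4 RNA sequencing libraries. Fresh-frozen libraries came from right eyes, whose eyecups were cut into quadrants and embedded for freezing with neither fixation nor cryoprotection. PFA-fixed libraries came from left eyes held in 4% paraformaldehyde (PFA, a crosslinking fixative) for 3 hours and in 2% for 24 hours at 4 °C, then in 15% and 30% sucrose for 24 hours each before freezing. RNA was taken from fresh-frozen tissue with the RNeasy Plus Micro kit, and from fixed tissue with the RNeasy FFPE kit after 18 hours of proteinase K at 56 °C and with a second removal of DNA. The series' title names laser capture, but the labels do not tell whether these libraries were captured. One stranded kit for small inputs of total RNA served all 8 libraries. Fixation, side of the eye and extraction kit cannot be told apart, so a difference belongs to the whole preparation. The series calls the libraries biological replicates without saying which share a dog, so p-values refer to the spread among the 8 libraries only.

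Levels are given on a log2 scale of CPM, read counts as scaled by the authors. Over all 12824 genes the CPM summed to 947380 to 975640 in fresh-frozen and 1021500 to 1058300 in fixed libraries. The sums of fixed libraries are larger than scaling to library size alone allows, and the further scaling is not described in the sources used here. The spacing of low values gave an effective depth of 21660000 to 22760000 reads in fresh-frozen and 11030000 to 15400000 in fixed libraries. This depth includes any such scaling and need not equal the number of reads in a library. Changes are PFA-fixed minus fresh-frozen on the log2 scale, with adjusted p-values from limma over all 12824 genes and a threshold of 0.05. Total levels of the chains are not ranked against each other, because transcript lengths were not used here.

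Of the 9 laminin chains, 7 were lower in PFA-fixed retina, none was called higher and 2 did not pass the test. Over the whole table, 34.7% of genes were called lower and 33.9% higher (68.7% in either direction). The median change was -1.27 for the chains and -0.02 for all genes. All 7 falls were at least 2-fold as deposited, where 13.7% of the table fell that far. LAMA3 was just past that size and fell short of it without fresh-frozen library 2 (-0.93) or 4 (-0.95), without fixed library 3 (-0.90), after quantile normalization (-0.97), with median centring (-0.93) and with 1 CPM added before the log (-0.98). Falls of at least 4-fold were found for 3 chains (5.84% of the table), and falls of at least 16-fold for LAMA2 and LAMC3 (1.35% of the table). In the same 7 chains every fixed library lay below every fresh-frozen one, which held for 31.6% of all genes (62.9% did not overlap in either direction). The count of 7 was the same under each of 15 other ways of fitting or scaling.

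**Figure D1:**
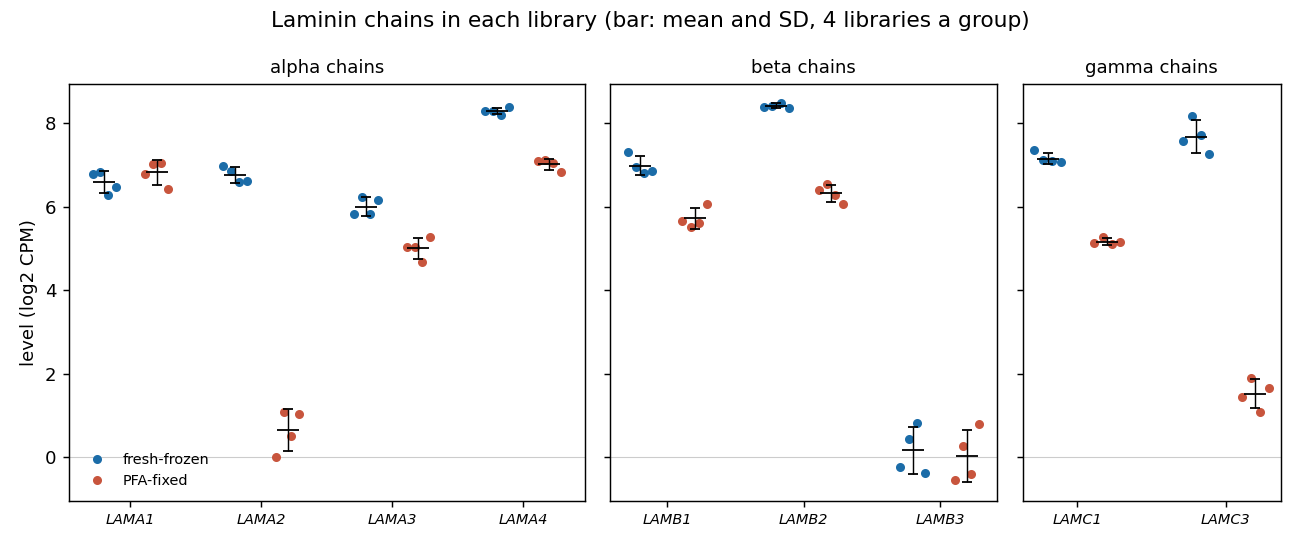
Level of each laminin chain in log2 CPM (vertical axis) in the 8 libraries, with points for libraries and bars for mean and SD of 4. LAMA2 and LAMC3 drop from means of 6.76 and 7.69 to 0.65 and 1.53, while LAMA1 and LAMB3 overlap between the groups.

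Among alpha chains, LAMA1, LAMA2, LAMA3 and LAMA4 did not move alike. LAMA1 encodes the alpha chain of the laminin of embryonic basement membranes, of the lens capsule and of the inner limiting membrane. Fresh-frozen libraries 1 to 4 held LAMA1 at 6.78, 6.84, 6.28 and 6.47 log2 CPM, and fixed libraries 1 to 4 at 6.79, 7.03, 7.05 and 6.43. Both groups spanned nearly the same range, and fixed library 4 was as low as the lower fresh-frozen ones. The change of LAMA1 was 0.23 ± 0.15 (SE), with a 95% interval of -0.10 to 0.57 and an adjusted p of 0.189 with limma. Without fixed library 4 the change was 0.37 and passed the test (limma adjusted p = 0.0278), and with the libraries centred on the mean of 15 rod genes it was -0.0054.

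LAMA2 encodes the alpha chain of muscle and Schwann cell basement membranes, and its loss causes a congenital muscular dystrophy. Its levels were 6.99, 6.86, 6.60 and 6.61 log2 CPM in fresh-frozen libraries 1 to 4. In the fixed ones they were 0.01, 1.08, 0.50 and 1.03. The groups lay far apart, and the fixed libraries spread more widely (SD 0.50 against 0.19, n = 4 each). LAMA2 fell by 6.11 ± 0.22 (SE; limma adjusted p = 1.09e-09), a 69.0-fold difference with a 95% interval of 49.5 to 96.2. Fixed libraries held about 11 to 24 reads of this gene and fresh-frozen ones about 2147 to 2745, by the effective depth. At such low numbers the reads added before the log understate the fall.

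LAMA3 encodes the alpha chain of the laminin that anchors epithelia at hemidesmosomes. It stood at 5.82, 6.23, 5.82 and 6.17 log2 CPM in fresh-frozen libraries 1 to 4, and at 5.04, 5.03, 4.67 and 5.28 in fixed ones. All fixed values were lower, and the fall of 1.01 ± 0.14 (SE) was the smallest of the 7 (limma adjusted p = 4.27e-05). LAMA4 encodes the alpha chain of endothelial basement membranes. Its values were tight, at 8.30, 8.29, 8.20 and 8.40 in fresh-frozen and 7.09, 7.12, 7.06 and 6.83 in fixed libraries 1 to 4. LAMA4 fell by 1.27 ± 0.08 (SE; limma adjusted p = 4.52e-08), which is 2.41-fold with a 95% interval of 2.15 to 2.71.

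Among beta chains, both widely expressed ones fell. LAMB1 encodes the beta chain found in many tissues from early development on. Its levels were 7.32, 6.95, 6.81 and 6.87 log2 CPM in fresh-frozen libraries and 5.67, 5.53, 5.61 and 6.08 in fixed libraries 1 to 4. Fresh-frozen library 1 and fixed library 4 were the highest of their groups, and the groups stayed apart. LAMB1 fell by 1.27 ± 0.13 (SE; limma adjusted p = 5.16e-06).

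LAMB2 encodes the beta chain of the neuromuscular junction, the kidney filter and the retina, and its loss causes Pierson syndrome, a disease of kidney and eye. It was at 8.39, 8.43, 8.50 and 8.38 log2 CPM in fresh-frozen libraries 1 to 4. Fixed libraries gave 6.40, 6.56, 6.28 and 6.06. Fresh-frozen values differed little among themselves (SD 0.05), the fixed ones more (SD 0.21). LAMB2 fell by 2.10 ± 0.09 (SE; limma adjusted p = 5.29e-09), which is 4.28-fold with a 95% interval of 3.71 to 4.94.

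LAMB3, the beta chain partner of LAMA3 in epithelial laminin, was near the lower end of the table in every library. Fresh-frozen libraries 1 to 4 held it at -0.23, 0.44, 0.83 and -0.37 log2 CPM, and fixed ones at -0.55, 0.26, -0.39 and 0.79. The groups overlapped throughout. Its change was -0.14 ± 0.40 (SE; 95% interval -1.02 to 0.74; limma adjusted p = 0.774), and the sign turned without fresh-frozen library 3 (0.08), without fixed library 1 (0.05) and after quantile normalization (0.40). About 7 to 37 reads of LAMB3 were held per library, and the part of counting error in its spread was not tested.

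Both gamma chains fell, LAMC3 further than LAMC1. LAMC1 encodes the gamma chain shared by most laminins. It was at 7.36, 7.12, 7.09 and 7.07 log2 CPM in fresh-frozen libraries 1 to 4 and at 5.13, 5.28, 5.11 and 5.16 in fixed ones. Each group was narrow and the gap between them was wide. LAMC1 fell by 1.99 ± 0.08 (SE; limma adjusted p = 2.77e-09), a 3.97-fold difference with a 95% interval of 3.51 to 4.49.

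LAMC3 encodes a gamma chain with a restricted distribution that has been described in retina and in brain, where its loss causes malformation of the occipital cortex. Fresh-frozen libraries 1 to 4 held 7.57, 8.19, 7.73 and 7.26 log2 CPM, and fixed ones 1.44, 1.90, 1.09 and 1.67. Fresh-frozen libraries differed among themselves more in LAMC3 than in LAMC1 (SD 0.39 against 0.14), and none came near the fixed ones. LAMC3 fell by 6.16 ± 0.20 (SE; limma adjusted p = 5.48e-10), which is 71.4-fold with a 95% interval of 52.4 to 97.2. About 31 to 40 reads were left per fixed library, against about 3484 to 6346 in fresh-frozen ones. Ordered from the lowest change in the table, LAMC3 was in place 35 and LAMA2 in place 36.

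**Figure D2:**
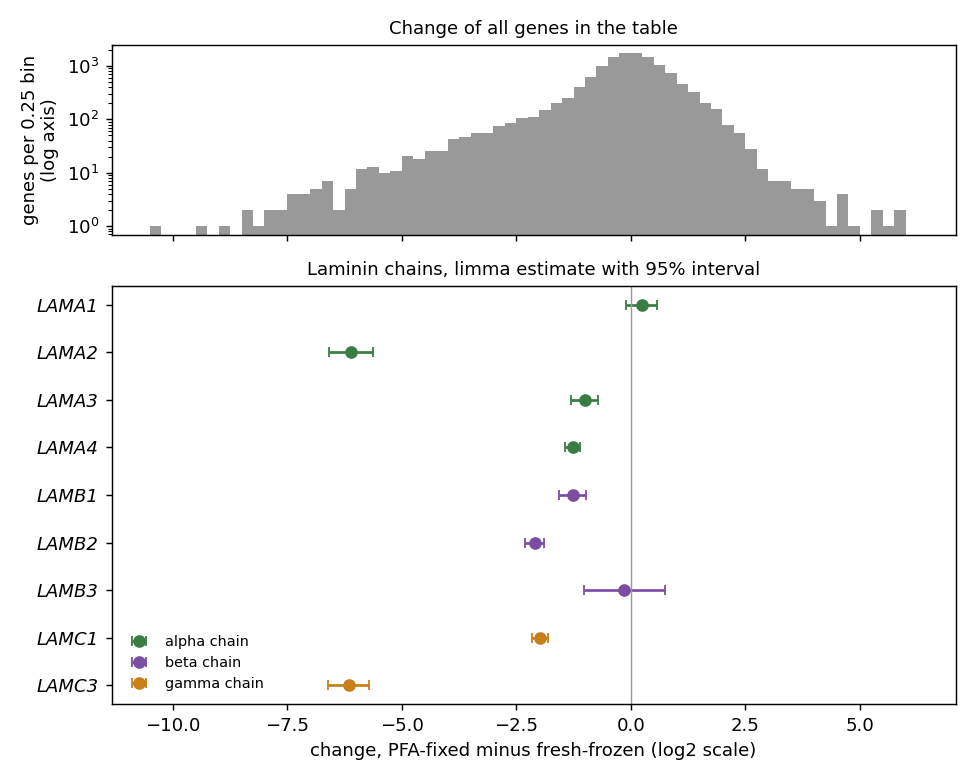
Upper panel, number of genes (log axis) by change on the log2 scale for all 12824 genes; lower panel, limma estimates with 95% intervals for the laminin chains on the same axis. LAMC3 and LAMA2 lie near -6, LAMB2 and LAMC1 near -2, and the intervals of LAMA1 and LAMB3 cross 0.

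Together the 9 chains summed to 1336 to 1519 CPM in fresh-frozen and 416 to 489 CPM in fixed libraries. These sums are on the authors' scale and are not exact shares of a library, because the sum over the whole table differed between the groups. The sum of the 4 alpha chains went from 587 ± 42.4 to 279.9 ± 27.9 CPM, that of the 3 beta chains from 473 ± 18.3 to 135 ± 6.05, and that of the 2 gamma chains from 355 ± 58.7 to 39.0 ± 2.64 (SD, n = 4 each). Ranges of the groups did not overlap for any class.

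Whether chains of one class changed by different amounts was tested on the ratio of their levels within each library. A single scaling factor per library cannot alter this ratio. Quantile normalization can, and the ratios were not tested under it. There were 10 such pairs, tested two-sided by exact permutation (70 assignments) with Benjamini-Hochberg adjustment over the pairs. The smallest possible p is 0.0286, or 0.0357 after adjustment here, and 8 pairs reached it. The ratio itself depends on transcript length. Its change between the groups does not, provided that length acts alike in both preparations, which was not tested.

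For alpha chains, the ratio of LAMA1 to LAMA2 rose by 6.34 on the log2 scale. It lay between -0.32 and -0.02 in fresh-frozen and between 5.39 and 6.78 in fixed libraries (exact permutation p = 0.0286, adjusted 0.0357). LAMA1 rose against LAMA4 by 1.51 and against LAMA3 by 1.24, with the same exact p-values. The call for LAMA1 against LAMA3 ended without any single fresh-frozen library (1.15 to 1.37, exact permutation, adjusted p of 0.063 to 0.071). LAMA2 dropped by 5.10 against LAMA3 and by 4.84 against LAMA4 (exact permutation p = 0.0286, adjusted 0.0357 for each). The ratio of LAMA3 to LAMA4 changed by 0.27 and did not pass (exact permutation p = 0.286). It ranged from -2.48 to -2.06 in fresh-frozen and from -2.39 to -1.55 in fixed libraries, which overlap.

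For beta chains, LAMB1 rose against LAMB2 by 0.83, from -1.44 ± 0.26 to -0.61 ± 0.44 (SD, n = 4 each; exact permutation p = 0.0286, adjusted 0.0357). The highest fresh-frozen ratio, -1.07, was close to the lowest fixed one, -1.04. This call ended without any single fresh-frozen library and without fixed library 3 or 4 (0.62 to 0.95, exact permutation, adjusted p of 0.063 to 0.071). LAMB2 dropped by 1.96 against LAMB3 with the same exact p-values, and LAMB1 by 1.13 against LAMB3 without passing (exact permutation p = 0.0857, adjusted 0.0952). The LAMB1 to LAMB3 ratio passed without fresh-frozen library 3 (-1.41, exact permutation, adjusted p = 0.0408) and with 1 CPM added before the log (-1.18, exact permutation, adjusted p = 0.0317). For gamma chains, LAMC1 rose against LAMC3 by 4.17, from between -1.06 and -0.19 to between 3.38 and 4.02 (exact permutation p = 0.0286, adjusted 0.0357).

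**Figure D3:**
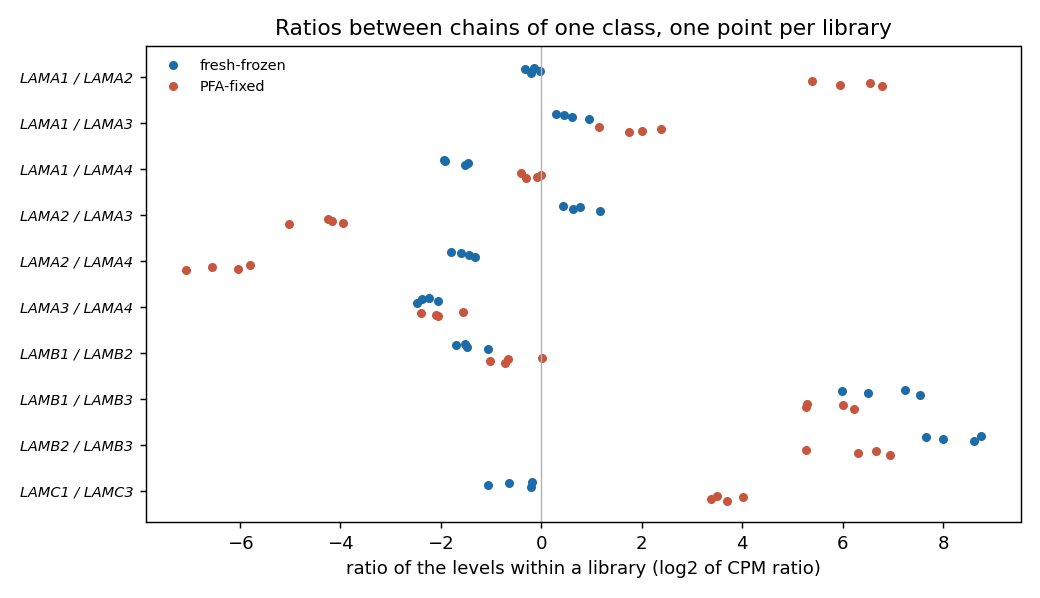
Ratio between chains of one class within each library (horizontal axis, log2 of the CPM ratio), one point per library. Groups are separate for LAMA1 to LAMA2 (fresh-frozen up to -0.02, fixed from 5.39) and for LAMC1 to LAMC3 (up to -0.19, from 3.38), nearly touch for LAMB1 to LAMB2 and overlap for LAMA3 to LAMA4.

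The partners of laminin in the sheet fell without exception in the lists used here, beside 34.7% called lower in the whole table. All 6 type IV collagen genes fell, with a median change of -1.78 and a range of -2.65 to -0.62. COL4A1 and COL4A2, which form the common collagen network of basement membranes, had log2 CPM of 7.51 ± 0.22 and 7.59 ± 0.19 in fresh-frozen libraries and of 5.17 ± 0.19 and 5.73 ± 0.08 in fixed ones (SD, n = 4 each). Their limma adjusted p-values were 1.35e-08 and 1.05e-08. COL4A6 fell by 2.65. All 8 genes of linkers and proteoglycans fell as well, with a median of -2.58. Perlecan (HSPG2) had means of 8.43 ± 0.03 log2 CPM in fresh-frozen and 3.50 ± 0.08 in fixed libraries (SD, n = 4 each), a fall of 4.93 ± 0.07 (SE; limma adjusted p = 7.87e-13). Nidogen 1 (NID1), which ties laminin to type IV collagen, fell by 3.48 from 7.26 to 3.78 log2 CPM. COL18A1, the source of endostatin, fell by 2.63, and COL15A1, a collagen of vessel and muscle basement membranes, fell by 6.99 to a mean of -0.20 log2 CPM.

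Cell surface receptors of laminin were mostly lower. Of 9 measured integrin and other receptor genes, 8 were called lower and 0 higher (34.7% and 33.9% of the whole table), and the median change was -1.78. The shared beta subunit ITGB1 fell by 0.85 and its partner ITGA6 by 1.56 (limma adjusted p = 9.87e-07 and 1.30e-07). ITGB4, the hemidesmosomal beta subunit, fell by 2.59, and MCAM, an adhesion molecule of vessel walls that binds LAMA4-containing laminin, fell by 2.39. The gene not called was ITGA3, chosen for mention after its value was seen, at 5.54 log2 CPM in both groups.

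Dystroglycan links laminin through dystrophin to the cytoskeleton. Of 14 measured genes of this complex, 7 fell and 3 rose, with a median of -0.17, where the whole table had 34.7% lower and 33.9% higher. DAG1, which encodes dystroglycan, fell by 0.76 ± 0.13 (SE; limma adjusted p = 2.46e-04). Dystrophin (DMD) rose by 1.35, from 9.65 ± 0.14 to 11.00 ± 0.02 log2 CPM, whereas its relative utrophin (UTRN) fell by 2.26, from 8.82 ± 0.07 to 6.56 ± 0.17 (SD, n = 4 each; limma adjusted p = 3.23e-08 and 1.25e-09). Sarcospan (SSPN) fell by 2.80. Of 12 enzymes on the list that build the laminin-binding sugar of dystroglycan, 6 rose and 4 fell, with a median of 0.24, and the share that fell was near the 34.7% of the whole table. The rises numbered 1 when libraries were centred on the rod genes. RXYLT1 rose by 0.96 and POMGNT2 fell by 1.05. POMK rose by 0.46 (0.22 and not called with that centring), and B4GAT1 differed by -0.10 (limma adjusted p = 0.210; -0.34 and called lower with that centring, limma adjusted p = 0.0101).

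Netrins share laminin-type domains, and the 2 falls and 2 rises among 4 measured genes set no direction apart from the whole table (34.7% lower, 33.9% higher). Of these, NTN1 and NTN4, which encode secreted netrins, fell by 4.30 and 1.63. NTNG1 and NTNG2, membrane-anchored netrins of neurons, rose by 0.38 and 1.04 (limma adjusted p = 0.00241 and 5.51e-07). With libraries centred on the rod genes, NTNG1 differed by 0.14 and was not called.

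**Figure D4:**
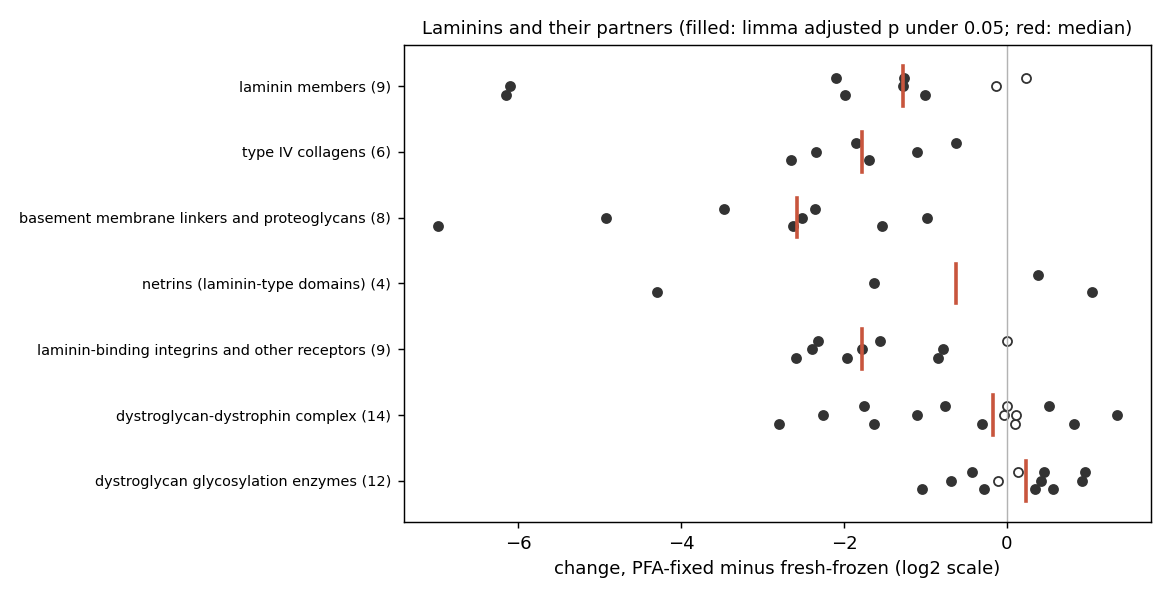
Change of each gene on the log2 scale (horizontal axis) for the laminin chains and 6 lists of partner genes, with the number measured in brackets; filled points passed limma at 0.05 and red bars are medians. The linkers and type IV collagens lie wholly below 0, with medians of -2.58 and -1.78, and the dystroglycan lists spread to both sides.

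Markers of several cell types, those that make basement membranes among them, were lower in the same libraries, but not those of every type. Of all genes, 34.7% were called lower and 33.9% higher. In bulk tissue, fewer cells of a type and less RNA per cell cannot be told apart. Of 10 endothelial markers 9 fell, and their summed level went from 1002 to 1361 CPM in fresh-frozen to 514 to 635 in fixed libraries, where VWF fell by 2.64. All 8 measured pericyte and smooth muscle markers fell (1637 to 2390 against 355 to 434 CPM), where MYH11 fell by 2.26. Of 11 sclera and fibroblast markers 10 fell (7918 to 11042 against 362 to 401 CPM), where COL1A1 fell by 9.27, and 10 of 11 pigment epithelium markers fell (2588 to 3591 against 269 to 339 CPM), where RPE65 fell by 4.89. Schwann cell and myelin markers fell in 7 of 8 (325 to 1112 against 38.3 to 42.0 CPM), melanocyte markers in 7 of 8 (1587 to 2355 against 147 to 158 CPM), and microglia and macrophage markers in 8 of 10 (237 to 381 against 36.9 to 53.6 CPM). Of Müller glia markers 6 of 10 fell (6681 to 9170 against 3565 to 4837 CPM), and of rod markers, which mark the labelled tissue, 3 of 15 fell and 7 rose (25709 to 29840 against 27863 to 31981 CPM). Bipolar cell markers fell in 0 of 10 and rose in 6 (1329 to 1688 against 2339 to 3015 CPM). Ganglion cell markers fell in 5 of 8 measured and rose in 1, with overlapping sums (2483 to 4865 against 2749 to 4170 CPM). Astrocyte markers fell in 1 of 3 measured and rose in 0, with a median change of -0.20 (121.67 to 1657 against 108 to 120.59 CPM). Some of these lists share genes, such as SOX10 in the Schwann cell and melanocyte lists, so their counts and sums are not independent. No measured marker of these lists stood at the lowest value of the table in all fixed libraries. The part of these cells in the falls of the laminin chains was not tested.

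Lists of lens and surface epithelium, tissues rich in LAMA1 and in epithelial laminin, were measured only in part. Only 2 of 8 lens markers were measured, 1 of them called higher and 0 lower (33.9% and 34.7% of the whole table). Their summed level was 27.4 to 37.9 CPM in fresh-frozen and 25.4 to 38.8 in fixed libraries. Of the epithelial markers 6 of 10 were measured, 2 of them lower and 2 higher, near the 34.7% and 33.9% of the whole table. The summed level of this list was 196 to 260.2 CPM in fresh-frozen and 94.4 to 103 CPM in fixed libraries, without overlap. Its most abundant gene, ITGB4, is also on the receptor list. The part of lens and surface epithelium in the levels of LAMA1, LAMA3 and LAMB3 was not tested.

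The genes whose profile over the 8 libraries came nearest to a chain were found by the distance between log2 profiles after each gene's mean was removed. This is a description with no test, and the shift between the groups makes up most of it. For LAMA4 the nearest were MEX3D, ADGRA2 and DOCK1, at distances of 0.18 to 0.23. For LAMB2 they were VASN, ARHGEF6 and SMTN, at 0.27 to 0.35. For LAMC3 they were the melanosome gene PMEL (0.50), SOX10, a transcription factor of neural crest derivatives (0.80), and LAMA2 (0.92), with changes of -6.29, -5.78 and -6.11.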

How the data were processed

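The deposited table holds log2 CPM for 12824 gene symbols, none repeated. The authors used limma, edgeR and kallisto 0.48.0, per the submitters' processing notes, which give no role or order. The sources used here name no transcript reference, strand setting or filter. All libraries share a lowest value of -3.12 log2 CPM (0.115 CPM, 2.01 reads at the mean depth). Depth was read from the spacing of low values. Only 60.9% to 68.5% of the values at or below 20 reads came out whole (tolerance 0.1 of a read), so no count test was run.

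The group effect was fitted with limma 3.58.1 (R 4.3.3, intensity trend) on the deposited log2 values of all genes, with Benjamini-Hochberg adjustment over the table, and the step was tested on simulated data. Chain ratios were tested by exact permutation (Python 3.11.15, numpy 2.4.6). The plan to compare levels per coding length was dropped, because no such length was used here. The members, the partner and marker lists and the rules were chosen with earlier results of these data known. Partners named are the most abundant 2 and the 2 with the largest called change of each list, plus 7 fixed genes (COL4A1, COL4A2, NID1, HSPG2, DAG1, ITGB1, ITGA6). The most abundant gene of a marker list may be named. Some genes that the lists and the rule take are not reported here, and list counts leave them out. Nearest profiles are the 3 closest to the chain of each class with the highest fresh-frozen level and to the chain with the largest change. Alternatives were each library left out, a replicate block, quantile normalization, centring on the median of all genes or on 15 rod genes, no intensity trend, log2(CPM + 1) and a minimum mean of 3 log2 CPM. Gene order came from RefSeq for UU_Cfam_GSD_1.0, where all 9 chains matched.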

Additional observations from a re-analysis of the deposited data

Results flagged for a closer look

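Of 64 combinations of a gene and a group of 4 libraries, 1 held a library far from the other 3 by Dixon's criterion, which chance meets in about 1 of 20. ITGB4, the hemidesmosomal integrin subunit, was at 6.90 log2 CPM in fresh-frozen replicate 1, where the remaining fresh-frozen libraries held 6.35 to 6.44.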

How the results depend on the processing

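LAMA2, LAMA3, LAMA4, LAMB1, LAMB2, LAMC1 and LAMC3 were lower and called under all 15 alternatives. LAMA1 ranged from 0.13 to 0.37 without single libraries, was called without PFA-fixed replicate 4, so that the chains called higher numbered 0 to 1, and was -0.0054 centred on the rod genes. LAMB3 ranged from -0.39 to 0.082 without single libraries and was 0.40 after quantile normalization. Centring on the rod genes moved the median change of all genes from -0.02 to -0.26, and with it 2780 genes were called higher and 5858 lower (32.2% of calls higher, against 49.4%). LAMB3 has no value under the minimum of 3 log2 CPM.

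Whether same-numbered libraries share a dog cannot be told from the values. Deviations of same-numbered libraries correlated at 0.05, 0.15, -0.09 and 0.22 across genes, and not every library correlated best with its own number. Low correlations with 4 libraries a group cannot exclude a pairing. With the replicate block 8799 genes were called, against 8804 without it, and no call of a laminin chain changed. The chain pairs that differed numbered 6 to 8 without single libraries and 0 with the replicate block, where the smallest possible sign-flip p is 0.125. LAMB3 had the fewest reads of the chains in fresh-frozen libraries, about 15 to 37, and about 7 to 20 in fixed ones.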

Other observations

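The chains' places in the genome are described here, and a link between place and change was not tested. By the RefSeq gene table, 4 of the chains lie on one chromosome, and their changes there were 0.23 for LAMA1, -1.01 for LAMA3, -0.14 for LAMB3 and -1.99 for LAMC1. The neighbours of LAMB2, KLHDC8B and USP19, differed by 0.08 and 0.26, and those of LAMC3, AIF1L and FIBCD1, by -1.46 and -2.43. LAMA2 lies between PTPRK (-0.65) and ARHGAP18 (0.27). LAMB3 lies between CAMK1G (-1.09) and TRAF3IP3 (-0.95). Neighbours are given only for chains whose nearest genes on both sides were measured.

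Another protein-coding gene overlaps LAMA2, LAMB2 and LAMB3 there, and the sources used here do not state the strand setting of the counting. The gene that overlaps LAMB3 and was measured, HSD11B1, a glucocorticoid-activating enzyme, went from 2.46 ± 0.29 to -2.52 ± 0.78 log2 CPM (SD, n = 4 each), whereas LAMB3 was at 0.17 ± 0.57 and 0.03 ± 0.62. The overlap was read from gene spans, not from exons. Where transcripts overlap, reads may be divided between such genes, and whether this touched the values of LAMA2, LAMB2 and LAMB3 was not tested.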
